A study of Saccharomyces cerevisiae with 15 samples.

Results

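The unnamed open reading frames (ORFs) at the ends of the budding yeast chromosomes were followed across 5 conditions in the Saccharomyces cerevisiae L40 strain. An ORF was a member if it lay wholly within 15 kb of position 1, or of the largest gene end, of its nuclear chromosome and carried no standard gene name. This rule gave 136 members among the 6692 genes counted, spread over all 32 ends of the 16 chromosomes, and 1 further ORF was left out by the rule. Another 1263 unnamed ORFs lay elsewhere in the genome, and 113 named genes lay in the same end windows. The rule uses position and name only, and no measured value.

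The 15 RNA-seq libraries were 3 biological replicates of each condition. L40 is a MATa reporter strain with the markers hisΔ200, trp1-901, leu2-3 with leu2-112, and ade2, a lacZ reporter written URA3::(lexAop)8-lacZ, a HIS3 reporter written LYS2::(lexAop)4-HIS3, and Gal4 listed in its genotype. Cells with the empty pL220 vector were grown for 1 h with Curcumin (200 µM) or CPTH2 (400 µM), both of which are used as histone acetyltransferase inhibitors. Cells expressing the intrabody scFv-58F, a single-chain antibody fragment against histone H3 acetylated at lysine 9, or scFv-645, an unrelated fragment against neuroligin-2, received DMSO alone. The baseline was the empty vector strain with DMSO, and all 5 conditions shared SD-L medium and 0.4% DMSO. Each intrabody was expressed from a plasmid in a transformed strain, so a difference from the empty vector strain cannot be told apart from a difference between transformants.

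Chromosome ends in yeast carry an X element next to the telomere repeats, and many ends also carry Y' elements, which hold long ORFs for helicase-like proteins and are nearly identical from end to end. Further in lie families of repeated genes, among them the PAU (seripauperin) genes, which are known to be induced by stress and low oxygen. The Sir proteins form silent chromatin from the telomere inward and depend on deacetylated histones, and the ORF YFR057W at the right end of chromosome VI is a known target of Sir2-dependent silencing. In the reference used here, 125 of the 136 members were annotated as uncharacterized or had no product at all.

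Because repeats set how these ORFs can be counted, the members were first grouped by sequence. The largest family held 54 members that belong to the Y' elements, 14 of them long ORFs and most of the others short frames inside or opposite them. A second family held 14 short ORFs, 8 of them within 5 kb of the end and the others up to 11725 bases from it, and the next held 9 ORFs that lie head to head beside PAU genes. Of all 51-base windows in a member, a median of 26.5% occurred once in the genome, against 100% in unnamed ORFs elsewhere, and the median in the Y' family was 0. The deposited counts share reads among such copies, so the 54 Y' ORFs are not 54 independent measurements. Strand was not used in the counting, so reads of the 61 members that overlap another gene cannot be told apart from those of that gene.

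The first bases of 3 Y' ORFs show how alike the copies are. YFL068W (VI:53-142, plus strand) and YIL177W-A (IX:846-935, plus strand) begin at a first codon that YDR545C-A (IV:1531256-1531342, minus strand) lacks. Capitals mark that codon and any base that differs from YFL068W, in the sacCer3 genome.
YFL068W: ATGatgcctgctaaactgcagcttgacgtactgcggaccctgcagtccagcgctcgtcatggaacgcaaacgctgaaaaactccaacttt
YDR545C-A: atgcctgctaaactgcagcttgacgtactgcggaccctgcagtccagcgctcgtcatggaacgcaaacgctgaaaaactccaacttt
YIL177W-A: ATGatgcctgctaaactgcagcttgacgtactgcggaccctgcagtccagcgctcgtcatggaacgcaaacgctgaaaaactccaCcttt
Over the whole ORF, YIL177W-A differed from YFL068W at 9 of 483 positions, and YDR545C-A differed from the second codon of YFL068W onward at 2 of 480. YFL068W and YLL067W-A did not differ at any of 483 positions.

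The ORFs beside PAU genes share the stretch between the 2 start codons, which is shown for YKL223W beside PAU16 (XI:2179-2391) and for YGL260W beside PAU11 (VII:6650-6862). Capitals mark the start codon of the PAU gene, read here on the opposite strand as CAT, and the ATG of the unnamed ORF.
YKL223W: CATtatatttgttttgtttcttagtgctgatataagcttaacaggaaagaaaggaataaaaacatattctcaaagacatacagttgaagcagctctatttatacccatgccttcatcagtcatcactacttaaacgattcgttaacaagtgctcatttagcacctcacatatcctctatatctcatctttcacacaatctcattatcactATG
YGL260W: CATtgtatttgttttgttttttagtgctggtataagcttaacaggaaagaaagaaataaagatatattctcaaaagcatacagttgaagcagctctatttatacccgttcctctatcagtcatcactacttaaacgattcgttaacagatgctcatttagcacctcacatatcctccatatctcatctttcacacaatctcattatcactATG
Between the start codons 192 of 207 bases were the same in these ORFs. YIR040C beside PAU15 matched YKL223W at 203 of 207 bases.

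YLL065W (XII:11726-11815, plus strand) is shown for the family of 14 short ORFs as one with no read in 12 libraries, and lies farthest of them from the end. Its start codon is in capitals. YFR057W is shown with the bases just before its start codon (VI:268941-269063, plus strand), since it is the member with a known silencing history.
YLL065W: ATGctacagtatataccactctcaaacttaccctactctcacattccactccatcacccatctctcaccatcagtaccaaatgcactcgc
YFR057W: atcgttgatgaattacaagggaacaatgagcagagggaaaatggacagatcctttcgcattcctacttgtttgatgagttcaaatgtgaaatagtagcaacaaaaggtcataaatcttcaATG

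The libraries held 9062694 to 18878167 reads on genes (median 12204400), and a total of 3 reads corresponded to 0.167 to 0.303 CPM, the count scaled to library size. Levels below are CPM adjusted by the trimmed mean of M-values (TMM), and folds are log2 fold changes ± standard error from edgeR's quasi-likelihood test with 3 libraries a group. An ORF is called changed at a Benjamini-Hochberg adjusted p below 0.05 over all 6588 genes tested and a change of at least 1.5-fold. TMM factors ran between 1.16 and 1.29 in Curcumin libraries and between 0.90 and 1.01 in the others. With library size alone as the scale, the median of all genes moved to 0.38 on the log2 scale in Curcumin, and the median of the members to 1.28. The strain is labelled MATa, and all 7 a-specific genes examined were expressed. Of 4 alpha-specific genes, MF(ALPHA)1 and MF(ALPHA)2 averaged 12.8 and 7.05 CPM in Curcumin and at most 2.14 CPM in any other condition, while STE3 averaged 9.28 to 13.7 CPM and SAG1 25.1 to 42.3 CPM over the conditions. Their part in the results was not tested. In these bulk samples, fewer expressing cells and less RNA per cell cannot be told apart.

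Of the 136 members, 105 passed the minimum of 10 counts in at least 3 libraries, 90 of them also without the Curcumin libraries and 15 only through these. For the 15, among them YFR057W, YOL166C, YFR054C, YGR293C, YBR300C and 7 of the ORFs beside PAU genes, being tested already required high counts in Curcumin, so their values there are a description and the printed p is no support. At least 1 read fell on every member in Curcumin, whereas 9 members had none in CPTH2, 13 in scFv-58F, 14 in scFv-645 and 5 in DMSO. The median length of a member was 468 bases, with a range of 75 to 5277. It was not tested whether L40 carries each of these ORFs at the place the reference genome gives.

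Curcumin raised most of the members. Of the 105 tested, 71 were higher (67.6%) and 6 lower (5.71%) than in DMSO, while 27.9% of all genes were called higher and 24.7% lower. The median change of the members was 0.93 on the log2 scale, against 0.03 over all genes. Among unnamed ORFs elsewhere 367 of 1220 were higher (30.1%) and 245 lower (20.1%), with a median of 0.19. The named genes of the same windows moved like the unnamed ones in their counts, 71 of 112 being higher (63.4%) and 14 lower, with a median of 1.15. Members that passed the count minimum only through the Curcumin libraries had to be high there, and among the 90 others 57 were higher and 6 lower, with a median of 0.90. Outside the Y' family, the 36 members that passed without Curcumin gave 16 higher and 6 lower, with a median of 0.47, and the unnamed ORFs elsewhere that did so gave 343 higher and 245 lower of 1188.

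The intrabodies shifted the members the other way. In scFv-58F, 39 members were lower (37.1%) and 1 was higher, against 5.43% of all genes lower and 1.97% higher. In scFv-645, 21 of the 105 were lower and 1 was higher, against 2.70% of all genes lower and 1.32% higher. Unnamed ORFs elsewhere showed 73 lower and 26 higher of 1220 in scFv-58F, and 36 lower and 22 higher in scFv-645. Both counts rested on the Y' family, since 37 of the 39 and 20 of the 21 belonged to it, and leaving it out left 2 and 1.

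CPTH2 raised a smaller set, with 15 members higher (14.3%) and 3 lower (2.86%). Over all genes 14.1% were higher and 16.9% lower, so the share of members called higher was close to the background. All 18 lay outside the Y' family.

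**Figure D1:**
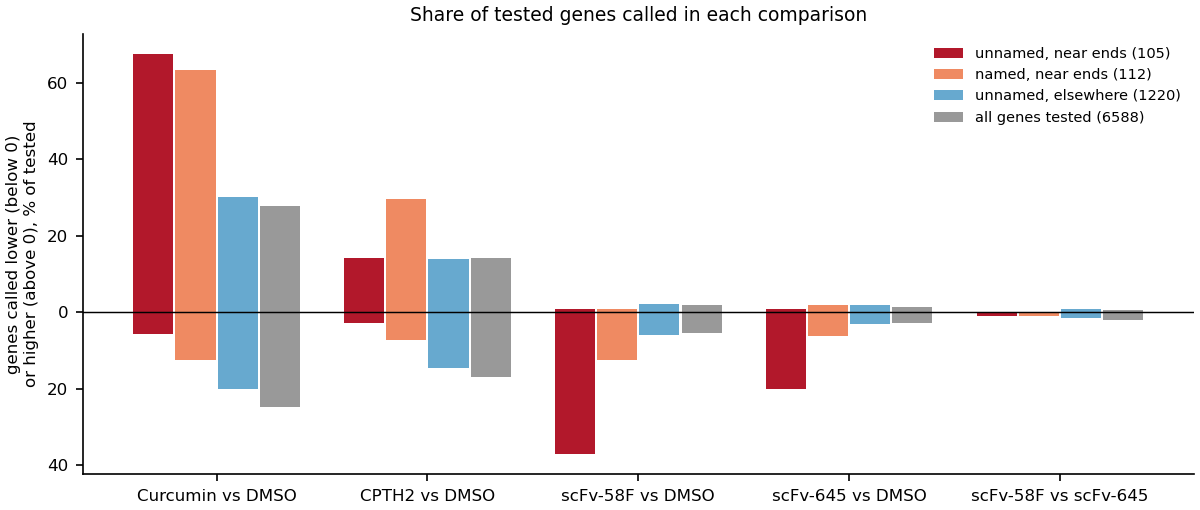
Percent of tested genes called higher (above 0) and lower (below 0) in each comparison, for unnamed ORFs near ends (105), named genes near ends (112), unnamed ORFs elsewhere (1220) and all genes (6588). In Curcumin 67.6% of the unnamed ORFs near ends were higher, and in scFv-58F 37.1% were lower.

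Summed over all 136 members, the level was 2254, 2759 and 3429 CPM in the Curcumin replicates, 1811, 1897 and 1733 in CPTH2, 1032, 1005 and 958 in scFv-58F, 1031, 1002 and 1091 in scFv-645, and 1251, 1266 and 1272 in DMSO. Every Curcumin and CPTH2 library was thus above every DMSO library, and every intrabody library below. In CPTH2 most of the rise lay in YML131W and YCR102C, and the other 80 members outside the Y' family summed to 470, 443 and 443 CPM in CPTH2 against 406, 416 and 424 in DMSO. The summed level of the 1263 unnamed ORFs elsewhere was 81665, 75299 and 98546 CPM in Curcumin and 95057, 96235 and 92140 in DMSO, where the groups overlapped. Such sums add overlapping and repeated ORFs and carry no test.

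**Figure D2:**
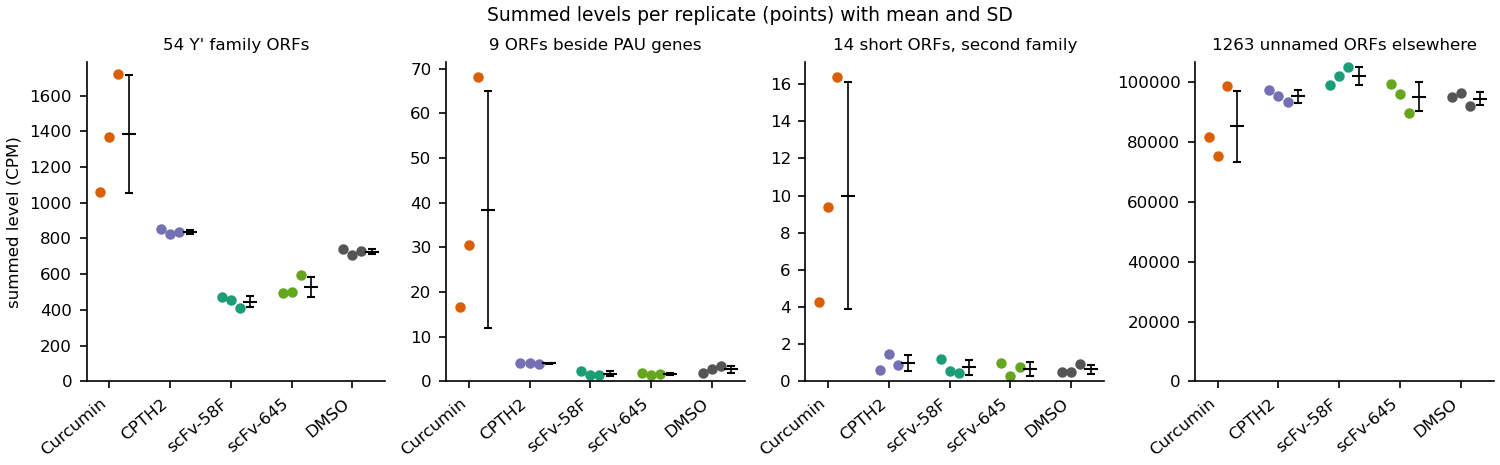
Summed TMM-scaled CPM per library for the 54 ORFs of the Y' family, the 9 ORFs beside PAU genes, the 14 short ORFs of the second family and the 1263 unnamed ORFs elsewhere, with a point for each of 3 replicates and the mean with its SD beside them. The ORFs beside PAU genes reached 16.7 to 68.1 CPM in Curcumin and at most 4.20 CPM in any other library.

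The Y' family moved in opposite directions with Curcumin and with the intrabodies. Its 54 ORFs summed to 1061, 1369 and 1721 CPM in Curcumin, 850, 823 and 836 in CPTH2, 475, 453 and 413 in scFv-58F, 497, 499 and 595 in scFv-645, and 740, 710 and 729 in DMSO. The Curcumin replicates spread more than those of any other condition, and no condition overlapped DMSO. In Curcumin 41 of the 54 were higher and none lower, with a median change of 0.92. In scFv-58F 37 were lower with a median of -0.72, and 53 of the 54 had a negative change, while in scFv-645 20 were lower with a median of -0.53. In CPTH2 edgeR called none in either direction, 13 had an adjusted p below 0.05 (14 unadjusted) without reaching 1.5-fold, and DESeq2 also called none. Over all genes 4216 of 6588 had an adjusted p below 0.05 in CPTH2 at any fold, a larger share than the 13 of 54. Negative changes with the intrabodies were also seen in some members outside this family. The 8 tested ORFs beside PAU genes, at low levels, were all negative in scFv-58F (median -0.69) and 6 of 8 in scFv-645 (median -0.82). All 11 tested members outside the Y' family within 5 kb were negative in scFv-58F (median -0.72) and 9 in scFv-645 (median -0.73). None of these was called. Most of the 8 passed the count minimum only through Curcumin, so their rise there is no support, and these groups share members. Of the 36 members outside this family that passed without Curcumin, 20 were negative and 16 positive in scFv-58F (median -0.041). In scFv-645 17 of them were negative and 19 positive (median 0.0081).

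Of the 14 unnamed ORFs listed as long Y' ORFs, some are annotated as helicases and others as uncharacterized, and YEL075C has only 369 bases. Together the 14 summed to 639, 832 and 1056 CPM in Curcumin, 520, 507 and 522 in CPTH2, 298, 286 and 262 in scFv-58F, 310, 312 and 372 in scFv-645, and 447, 429 and 447 in DMSO. In DMSO they stood at 6.20 to 13.5 CPM per kilobase. Of the 14, 12 were higher in Curcumin and 9 lower in scFv-58F. In scFv-645 edgeR called none of them, although 11 had an adjusted p below 0.05 (13 unadjusted) without reaching 1.5-fold, and DESeq2 called none either. Over all genes 1508 of 6588 had an adjusted p below 0.05 in scFv-645 at any fold. The median change of the 14 in scFv-645 was -0.41. The 29 members that overlap a long Y' ORF or a YRF1 gene gave 27 higher in Curcumin, 26 lower in scFv-58F and 19 lower in scFv-645.

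YPR204W, a long Y' ORF annotated as a helicase at the right end of chromosome XVI, shows the pattern with many reads. It had 60.3, 78.1 and 92.5 CPM in Curcumin, 45.3, 45.1 and 45.9 in CPTH2, 24.2, 22.5 and 20.5 in scFv-58F, 26.0, 26.6 and 31.2 in scFv-645, and 41.0, 38.5 and 39.8 in DMSO. The change was 0.94 ± 0.19 in Curcumin (edgeR adjusted p = 0.00661) and -0.82 ± 0.07 in scFv-58F (adjusted p = 1.25e-05). In scFv-645 it was -0.51 ± 0.08 (edgeR adjusted p = 0.00181), which did not reach 1.5-fold, and in CPTH2 it was 0.19 ± 0.07 (adjusted p = 0.0392).

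Within the Y' family, the largest decreases in scFv-58F were those of short frames of the kind printed above, such as YDR545C-A, which lies 369 bases from the chromosome end. YDR545C-A had 17.5, 21.4 and 25.2 CPM in Curcumin, 12.8, 12.1 and 11.7 in CPTH2, 5.61, 4.97 and 4.37 in scFv-58F, 5.94, 6.08 and 7.30 in scFv-645, and 11.4, 10.7 and 10.7 in DMSO. It changed in scFv-58F by -1.12 ± 0.12 (edgeR adjusted p = 3.37e-05) and in scFv-645 by -0.76 ± 0.12 (adjusted p = 0.00148), and in Curcumin by 0.96 ± 0.19 (adjusted p = 0.00597). YPL283W-B changed by -1.03 and YER190C-B and YGR296C-B by -1.02 each in scFv-58F. YFL068W, whose sequence differs from YDR545C-A at so few bases, changed by -0.91 ± 0.11 in scFv-58F and by -0.65 ± 0.11 in scFv-645. These copies share nearly all their windows, so their values are not independent of one another.

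The named YRF1 genes, which encode the Y' helicases and lie in the same elements, are not members and were counted beside them. All 8 were higher in Curcumin (median 0.81), all 8 were lower in scFv-58F (median -0.88), 4 of 8 were lower in scFv-645 (median -0.57), and in CPTH2 none was called, with a median of 0.12.

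**Figure D3:**
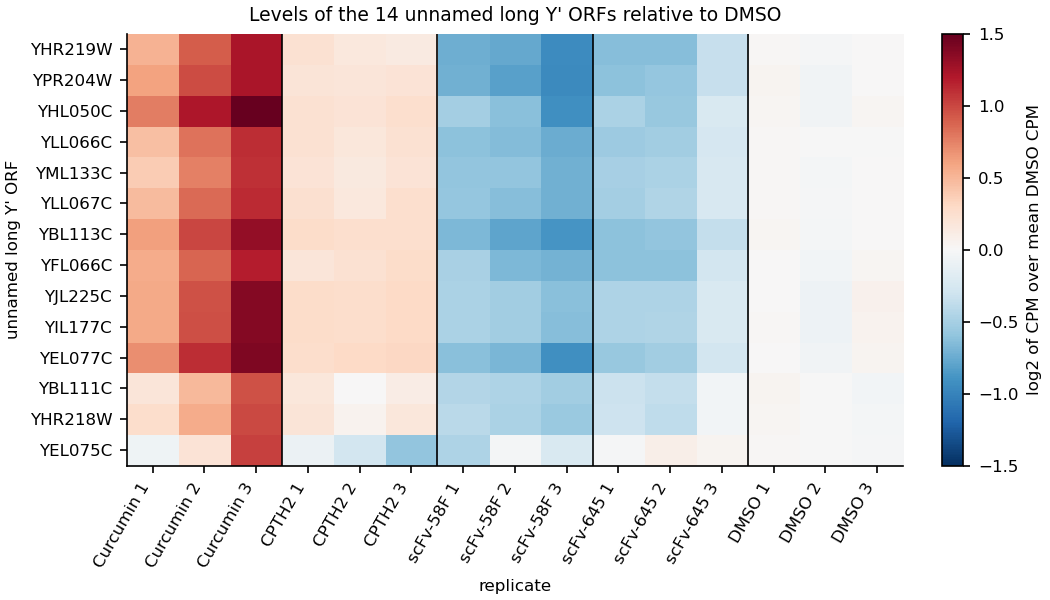
Log2 of the CPM of each of the 14 unnamed long Y' ORFs (rows) in each of the 15 libraries (columns), relative to the mean of the 3 DMSO libraries, on a colour scale from -1.5 to 1.5. Curcumin columns run above the DMSO mean and both intrabodies below it, and the median change over these ORFs was 0.89 in Curcumin and -0.64 in scFv-58F.

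The ORFs beside PAU genes stood at low levels in every condition but Curcumin. The 9 together had 16.7, 30.5 and 68.1 CPM in Curcumin, 4.06, 4.20 and 3.83 in CPTH2, 2.36, 1.54 and 1.39 in scFv-58F, 1.88, 1.40 and 1.60 in scFv-645, and 1.92, 2.78 and 3.35 in DMSO. In reads, this was 1553 in Curcumin and 109 in DMSO. Of the 9, 8 could be tested, 7 of them only through the Curcumin libraries, and all 8 were called higher there, which for those 7 the filter all but fixed. Replicate 3 of Curcumin held 952 of the 1553 reads.

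YAL067W-A, which lies 310 bases from the start of PAU8, had 1.71, 5.04 and 8.01 CPM in Curcumin, 0.328, 0.411 and 0.303 in CPTH2, 0.0876, 0 and 0 in scFv-58F, 0.0752, 0 and 0 in scFv-645, and 0, 0.111 and 0.0839 in DMSO. It had the largest fitted increase of all members in Curcumin, 5.87 ± 0.88 (edgeR adjusted p = 0.00232). With 196 reads in Curcumin and 3 in DMSO, the ratio was 64.6 with a 95% interval of 21.8 to 316 from counting alone. In CPTH2 13 reads gave a ratio of 4.62 (1.27 to 25.3), and the call there was lost with DESeq2 (adjusted p = 0.0788), in a single edgeR model of all conditions (adjusted p = 0.126), without CPTH2 replicate 2 (adjusted p = 0.0543) and without DMSO replicate 1 (adjusted p = 0.0531).

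YBL108W beside PAU9 had 1.44, 2.48 and 4.72 CPM in Curcumin against 0.101, 0.111 and 0.0839 in DMSO, a ratio of reads of 28.7 (10.9 to 107). YKL223W, printed above, had 1.58, 4.36 and 11.7 CPM in Curcumin against 0.101, 0.445 and 0.503 in DMSO (3.95 ± 0.88, edgeR adjusted p = 0.0093). YGL260W had 0.960, 1.37 and 3.36 CPM in Curcumin against 0.202, 0.222 and 0.252 in DMSO (3.01 ± 0.63, edgeR adjusted p = 0.00751). YJL222W-B, beside PAU1, had 111 reads in Curcumin and 4 in DMSO, a ratio of 27.4 (10.4 to 102). In each of these ORFs all 3 Curcumin libraries were above DMSO, as in 35.4% of all genes tested. These ORFs passed the count minimum only through Curcumin, so this separation is a description and no support.

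YIR040C, with 3.22, 4.87 and 10.9 CPM in Curcumin, 1.44, 1.81 and 1.51 in CPTH2, and 0.606, 0.778 and 1.17 in DMSO, was also called in CPTH2 (0.88 ± 0.29, edgeR adjusted p = 0.0238), a call that DESeq2 did not make. The neighbouring PAU genes rose in Curcumin as well. PAU16 changed by 3.36, PAU11 by 2.66, PAU15 by 2.55, PAU1 by 3.50, PAU8 by 3.77, PAU9 by 4.16, PAU6 by 3.81 and PAU19 by 5.31, all of them called. The start codons of each ORF and its PAU neighbour were 196 to 443 bases apart. YGR293C (4.78 ± 0.79, edgeR adjusted p = 0.00324) and YBR300C (4.01 ± 0.80, adjusted p = 0.00627) overlap PAU12 and PAU24, which changed by 3.63 and 3.22, so their reads cannot be told apart from those of the PAU genes.

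The 14 short ORFs of the second family had few reads outside Curcumin. Their sum was 4.25, 9.39 and 16.4 CPM in Curcumin, 0.590, 1.48 and 0.908 in CPTH2, 1.23, 0.560 and 0.465 in scFv-58F, 0.977, 0.280 and 0.756 in scFv-645, and 0.505, 0.5001 and 0.923 in DMSO. In reads over 3 libraries, this was 401 in Curcumin, 36 in CPTH2, 27 in scFv-58F, 25 in scFv-645 and 25 in DMSO. The only 1 that passed the count minimum, YER188C-A, rose in Curcumin by 2.72 ± 0.59 (edgeR adjusted p = 0.0084).

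YLL065W, printed above, had 3, 12 and 24 reads in the Curcumin libraries and none in the other 12, so that it was at least 12.9-fold higher in Curcumin, taking 3 reads over the DMSO group as the limit of a count of 0. YCR108C had 6, 4 and 19 reads in Curcumin and none elsewhere, at least 9.56-fold higher on the same limit. YFL063W had 4, 16 and 32 reads in Curcumin against 0, 2 and 0 in DMSO, a ratio of 25.7 (6.77 to 218). YLL065W and YCR108C were not detectable in the other conditions at this depth.

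YFR057W, the silenced ORF at the end of chromosome VI, had 2.81, 4.27 and 8.01 CPM in Curcumin, 0.131, 0.0823 and 0 in CPTH2, 0.0876, 0.0700 and 0 in scFv-58F, 0.0752, 0 and 0 in scFv-645, and 0.101, 0.0556 and 0.335 in DMSO. Its windows all occur once in the genome, and the 203 reads in Curcumin against 6 in DMSO gave a ratio of 33.4 (15.1 to 92.2). The fitted change in Curcumin was 4.93 ± 0.70 (edgeR adjusted p = 0.00198), for an ORF tested only because its Curcumin counts are high. In CPTH2, scFv-58F and scFv-645 it was not called, with at most 2 reads in any of these libraries. YOL166C, which lies 999 bases from the left end of chromosome XV, had 1.92, 3.84 and 6.51 CPM in Curcumin against 0.202, 0.167 and 0.335 in DMSO, a ratio of reads of 18.0 (9.26 to 40.1).

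Factors of silent chromatin at chromosome ends were counted from a list of 14 genes. In Curcumin 3 were higher (SIR2 by 1.06, SIR4 by 2.18 and RAP1 by 2.31) and 5 were lower (DOT1, RIF2, YKU70, YKU80 and SAS5). These are 21.4% and 35.7% of the list, against 27.9% and 24.7% of all genes. In CPTH2 ESC1 was higher (7.14%), and DOT1 and RIF2 were lower (14.3%), against 14.1% and 16.9% of all genes. In scFv-58F edgeR called none of the 14, with 7 at an adjusted p below 0.05 (7 unadjusted) and under 1.5-fold, and in scFv-645 none, with 1 (3 unadjusted). Over all 6588 genes, 3231 in scFv-58F and 1508 in scFv-645 had an adjusted p below 0.05 at any fold. DESeq2 called none of the 14 in either intrabody strain. The part of these factors in the levels of the members was not tested.

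Outside the Y' family the members summed to 1193, 1390 and 1708 CPM in Curcumin, 961, 1073 and 897 in CPTH2, 557, 552 and 545 in scFv-58F, 533, 503 and 497 in scFv-645, and 511, 556 and 543 in DMSO. Both drugs raised YML131W and YCR102C, ORFs with enzyme-like sequences. YML131W resembles the medium-chain dehydrogenases and reductases and is known to be induced by stress, and YCR102C resembles quinone oxidoreductases. YML131W had 497, 534 and 580 CPM in Curcumin, 360, 483 and 345 in CPTH2, 87.2, 79.97 and 73.1 in scFv-58F, 52.0, 54.4 and 59.2 in scFv-645, and 79.8, 108 and 89.0 in DMSO. Both drugs lay well above every other library, and scFv-645 lay below all the rest. The change was 2.53 ± 0.21 in Curcumin (edgeR adjusted p = 0.000612), 2.10 ± 0.16 in CPTH2 (adjusted p = 1.67e-05) and -0.76 ± 0.11 in scFv-645 (adjusted p = 0.000933), and in scFv-58F it was -0.21 ± 0.10 (adjusted p = 0.102).

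YCR102C had 238, 274 and 251 CPM in Curcumin, 130, 147 and 109 in CPTH2, 27.6, 28.7 and 26.9 in scFv-58F, 25.4, 22.2 and 24.7 in scFv-645, and 25.3, 31.9 and 29.6 in DMSO. It rose by 3.12 ± 0.19 in Curcumin (edgeR adjusted p = 0.0006) and by 2.15 ± 0.13 in CPTH2 (adjusted p = 7.41e-06), and did not pass the test with either intrabody. Together YML131W and YCR102C had 735, 808 and 831 CPM in Curcumin and 491, 630 and 454 in CPTH2, against 105, 140 and 119 in DMSO. YDR541C, an NADPH-dependent carbonyl reductase that was called in no comparison, had 20.7, 15.6 and 16.9 CPM in Curcumin, 25.9, 23.8 and 23.4 in CPTH2, 22.0, 18.3 and 19.1 in scFv-58F, 21.3, 22.6 and 23.3 in scFv-645, and 25.7, 22.2 and 25.2 in DMSO. Its change in Curcumin was -0.47 ± 0.16 (edgeR adjusted p = 0.0467), short of 1.5-fold.

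The 250 bases before these 2 ORFs are shown because both rose with both drugs. The window of YML131W (XIII:9948-10197, plus strand) holds TTACGTAA, and that of YCR102C (III:305468-305717, minus strand) holds TTACTAA, in capitals. Both are known forms of the site of Yap1, a factor of the oxidative stress response.
YML131W: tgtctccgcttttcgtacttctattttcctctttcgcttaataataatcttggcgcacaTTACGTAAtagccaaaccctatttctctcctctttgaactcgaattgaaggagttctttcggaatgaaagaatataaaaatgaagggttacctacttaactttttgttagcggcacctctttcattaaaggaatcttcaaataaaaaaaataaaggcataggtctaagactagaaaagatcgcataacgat
YCR102C: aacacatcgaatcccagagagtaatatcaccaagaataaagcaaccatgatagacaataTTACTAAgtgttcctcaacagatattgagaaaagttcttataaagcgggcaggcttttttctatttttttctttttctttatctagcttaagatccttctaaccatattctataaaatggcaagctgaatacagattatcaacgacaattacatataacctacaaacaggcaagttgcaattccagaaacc
Counted on both strands, TTACTAA was in 430 of 6663 such windows (6.45%) and TTACGTAA, which reads the same on both strands, in 36 (0.54%). Among the 135 windows of members, each was found in 1, the one shown, and the motifs do not overlap. A match of letters is not a measured binding site.

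YOL162W and YOL163W are neighbours on chromosome XV and are regarded as pieces of a transporter gene that is broken in the reference strain. YOL162W had 32.6, 59.5 and 66.1 CPM in Curcumin, 10.3, 10.7 and 8.37 in CPTH2, 7.09, 4.76 and 5.58 in scFv-58F, 5.86, 4.67 and 5.46 in scFv-645, and 5.46, 4.50 and 5.03 in DMSO. The increase was 3.39 ± 0.31 in Curcumin (edgeR adjusted p = 0.000697) and 0.99 ± 0.15 in CPTH2 (adjusted p = 0.000358). YOL163W had 30.4, 45.9 and 54.9 CPM in Curcumin and 15.3, 16.1 and 12.5 in CPTH2, against 6.36, 7.50 and 8.97 in DMSO (2.51 and 0.94). YKR104W, part of a gene for a transporter of the multidrug resistance protein family, had 8.02, 16.3 and 18.8 CPM in Curcumin and 1.38, 2.22 and 3.53 in CPTH2, against 1.31, 1.06 and 1.17 in DMSO (3.60 and 0.96, both called). YFR054C, of unknown function, had 2.74, 5.98 and 7.51 CPM in Curcumin and 0.721, 0.494 and 0.403 in CPTH2, against 0.404, 0.445 and 0.671 in DMSO, with a fitted change of 3.38 ± 0.49 in Curcumin (edgeR adjusted p = 0.0021) and no call in CPTH2.

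Among the 6 members that fell in Curcumin were some of the strongest in DMSO. Per kilobase, the highest of the members that overlap no gene were YML131W with 84.0 CPM, YMR321C with 80.2, YER186C with 78.8, YEL073C with 78.2 and YCR102C with 26.1, and the 3 of these without an increase all fell. YEL073C, known to respond to inositol and choline, had 7.61, 6.58 and 8.94 CPM in Curcumin, 22.9, 13.4 and 16.8 in CPTH2, 25.5, 28.7 and 26.5 in scFv-58F, 33.0, 28.9 and 28.5 in scFv-645, and 22.7, 26.4 and 26.9 in DMSO. It changed by -1.73 ± 0.19 in Curcumin (edgeR adjusted p = 0.000908). YER186C had 31.1, 20.2 and 27.1 CPM in Curcumin against 70.8, 73.8 and 73.1 in DMSO (-1.49 ± 0.19, edgeR adjusted p = 0.00137), and YMR321C, a paralog of SAM4, had 12.96, 13.2 and 15.2 against 28.6, 25.1 and 22.9 (-0.90 ± 0.16, adjusted p = 0.00419). With library size alone as the scale, YMR321C changed by -0.55 and was short of 1.5-fold.

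A pair of ORFs on the right arm of chromosome I were lower in Curcumin and higher in CPTH2. YAR066W, a putative GPI-anchored protein with the paralog YHR214W, had 1.71, 1.11 and 2.07 CPM in Curcumin, 8.38, 9.95 and 10.8 in CPTH2, 4.29, 6.37 and 4.93 in scFv-58F, 6.39, 5.61 and 7.14 in scFv-645, and 5.76, 5.61 and 5.12 in DMSO. All Curcumin libraries were below DMSO and all CPTH2 libraries above it, with changes of -1.75 ± 0.29 (edgeR adjusted p = 0.00301) and 0.81 ± 0.14 (adjusted p = 0.000874). YAR068W nearby, with the paralog YHR214W-A, had 3.36, 2.39 and 2.29 CPM in Curcumin and 8.45, 11.4 and 10.99 in CPTH2, against 6.36, 5.45 and 5.03 in DMSO, with changes of -1.07 and 0.87, both called. Of the windows of YAR066W and YAR068W, only 9.07% and 11.7% occurred once in the genome, so most of their reads cannot be assigned to these 2 ORFs alone. Curcumin and CPTH2 were not compared directly. YER188W, known to increase without oxygen, ran the other way, with 8.30, 12.9 and 17.2 CPM in Curcumin, 3.28, 2.39 and 4.14 in CPTH2, 3.33, 3.22 and 3.53 in scFv-58F, 4.21, 3.93 and 4.70 in scFv-645, and 5.86, 5.17 and 5.95 in DMSO. It rose in Curcumin (1.17) and fell in CPTH2 (-0.80) and in scFv-58F (-0.74 ± 0.15, edgeR adjusted p = 0.00172).

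**Figure D4:**
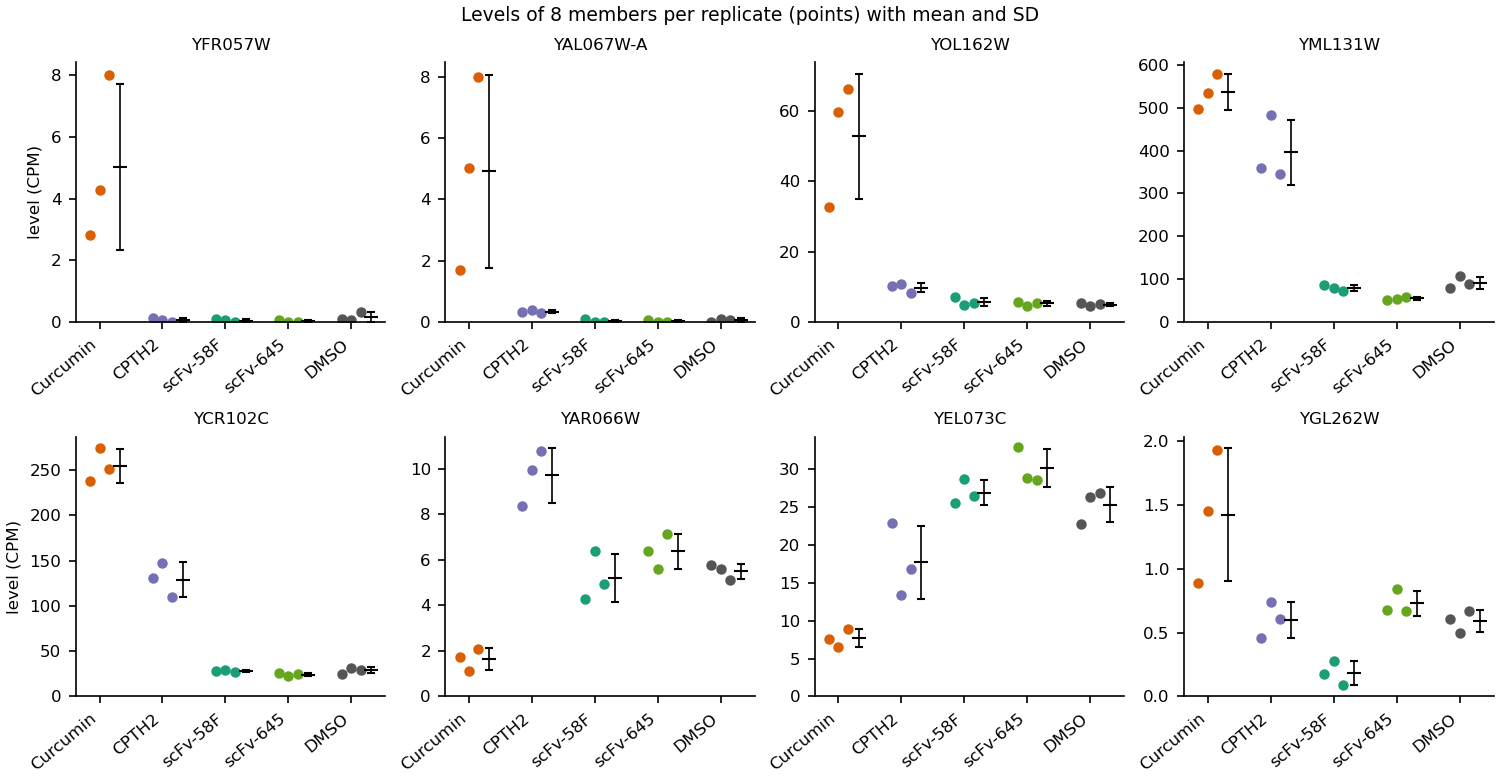
TMM-scaled CPM of 8 members in each library, a panel each with its own axis from 0, for Curcumin, CPTH2, scFv-58F, scFv-645 and DMSO, with a point for each of 3 replicates and the mean with its SD. YFR057W is highest in Curcumin (2.81 to 8.01 CPM), YAL067W-A is highest there and next in CPTH2 (0.303 to 0.411 CPM), YML131W and YCR102C are high in both drugs, and YGL262W is lowest in scFv-58F (0.093 to 0.28 CPM).

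Other changed members lie on top of a named gene. YAR075W had 11.04, 15.4 and 37.5 CPM in Curcumin and 14.1, 19.6 and 21.9 in CPTH2, against 5.56, 5.28 and 5.53 in DMSO, and it overlaps IMD1, which changed by 1.83 and 1.72. YHL046W-A rose by 1.28 in Curcumin and 1.59 in CPTH2, and it overlaps ARN2, a siderophore transporter gene that changed by 1.30 and 1.51. YFR056C rose by 0.60 in Curcumin and changed by -0.65 in CPTH2, and it overlaps IRC7, which changed by 0.77 in Curcumin. The decrease of YFR056C in CPTH2 was short of 1.5-fold without CPTH2 replicate 2 (-0.51). YIR036W-A, with 11.4, 9.05 and 8.51 CPM in Curcumin against 18.5, 18.4 and 20.3 in DMSO, changed by -0.998 ± 0.18 (edgeR adjusted p = 0.00408), and it overlaps IRC24, which changed by -1.07. For these the source of the reads cannot be told apart. YCL065W, which lies over the silent mating gene HMLALPHA1, was the only 1 called higher in either intrabody strain. It had 5.52, 6.23 and 6.32 CPM in scFv-58F, 6.47, 5.61 and 4.70 in scFv-645, and 2.42, 3.78 and 3.27 in DMSO, with changes of 0.88 ± 0.17 (edgeR adjusted p = 0.00152) and 0.78 ± 0.19 (adjusted p = 0.0153). The call in scFv-645 was lost in the single edgeR model (adjusted p = 0.132) and without DMSO replicate 3 (adjusted p = 0.058). HMLALPHA1 changed by 0.13 in scFv-58F and -0.14 in scFv-645, not called in either.

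CPTH2 also raised YGL258W-A, an ORF of unknown function with 6.42, 6.42 and 6.56 CPM in CPTH2 against 2.53, 2.89 and 2.68 in DMSO (1.24 ± 0.14, edgeR adjusted p = 0.000106). Another was YOR392W, with 1.31, 1.73 and 1.41 CPM in CPTH2 and 1.92, 1.96 and 3.79 in Curcumin, against 0.606, 0.389 and 0.839 in DMSO (1.33 ± 0.33 in CPTH2, edgeR adjusted p = 0.0064). Apart from YER188W and YFR056C, the other member lower in CPTH2 was YOL160W, with 1.18, 1.32 and 0.908 CPM against 2.42, 1.89 and 2.01 in DMSO (-0.85 ± 0.24, edgeR adjusted p = 0.0118), a call lost in the single model (adjusted p = 0.119). Outside the Y' family, 15 of 51 members were higher and 3 lower in CPTH2, against 169 higher and 179 lower of 1220 unnamed ORFs elsewhere. The named genes near ends gave 33 higher and 8 lower of 112.

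A direct test of scFv-58F against scFv-645 addressed whether the lower levels differ between the intrabodies. Of the 105 members, 1 was lower and 0 higher, against 2.13% of all genes lower and 0.668% higher. At an unadjusted p below 0.05 there were 19 lower and 3 higher, and DESeq2 called none. Over all genes 2256 of 6588 had an unadjusted p below 0.05, a larger share than the 22 of 105 members. All 54 ORFs of the Y' family had a negative difference, with a median of -0.25, and none was called. As these ORFs share reads, the common sign is not 54 separate observations. The comparisons of each intrabody with DMSO share the DMSO libraries, and all 20 members called lower in both belonged to the Y' family. The count in scFv-645 was sensitive to the fit, at 5 lower with all 5 conditions in 1 model and 39 without the 1.5-fold limit.

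The member called lower was YGL262W, an ORF of unknown function on chromosome VII that passed the count minimum only through Curcumin. It had 0.175, 0.280 and 0.0930 CPM in scFv-58F (2, 4 and 1 reads), 0.677, 0.841 and 0.672 in scFv-645 (9, 9 and 8 reads), and 0.606, 0.5001 and 0.671 in DMSO. The difference between the intrabodies was -1.86 ± 0.44 (edgeR adjusted p = 0.0126), and that of scFv-58F from DMSO was -1.55 ± 0.44 (adjusted p = 0.015). The first call was lost in the single model (edgeR adjusted p = 0.137) and without scFv-58F replicate 3 (adjusted p = 0.0535). Differences short of 1.5-fold were measured for YFL064C, YPR204W and YML131W. YFL064C, a Y' ORF, had 3.24, 3.78 and 3.25 CPM in scFv-58F and 4.74, 5.23 and 5.54 in scFv-645, a difference of -0.58 ± 0.15 (edgeR adjusted p = 0.0191).

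Distance from the end and starting level were set beside the counts in Curcumin. With the nearer edge within 5 kb 45 of 56 tested members were higher and none lower, between 5 and 10 kb 17 of 27 were higher and 4 lower, and between 10 and 15 kb 9 of 22 were higher and 2 lower. The Y' family supplies most of the first bin, and without it the counts higher were 9 of 11, 14 of 22 and 7 of 18, which include members that passed only through Curcumin. Of the 19 tested members under 1 CPM in DMSO, 15 passed the count minimum only through Curcumin, so no share is read from them. At 1 to 10 CPM in DMSO 27 of 51 members were higher against 183 of 437 unnamed ORFs elsewhere, and at 10 CPM or more 27 of 35 against 140 of 701. In that last class 4 members and 204 of the ORFs elsewhere were lower, with medians of 0.94 and -0.17. Most of its 35 members were Y' ORFs, which share reads, and the Y' family was not left out of these level classes. These shares are descriptions, and the difference between the groups of ORFs was not tested.

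Of 25 tested members with at least 90% of their windows found once in the genome, 15 were higher and 3 lower in Curcumin. In CPTH2 6 of the 25 were higher and 3 lower, and 2 were lower in scFv-58F and 1 in scFv-645. Over all genes 27.9% were higher and 24.7% lower in Curcumin, and 14.1% and 16.9% in CPTH2. The shares of all genes lower were 5.43% in scFv-58F and 2.7% in scFv-645. The 25 include members tested only through Curcumin, such as YFR057W, so their count higher in Curcumin is a description. At the limit of the 15 kb window, YJR157W (14746 bases from the end) and YER186C (14820) lay just inside, and YGR290W (15109) and YPL278C (15354) just outside. YGR290W changed by -0.20 in Curcumin and 0.74 in CPTH2, and YPL278C by 0.75 and 0.76, and YJR157W was too weak to be tested.

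**Figure D5:**
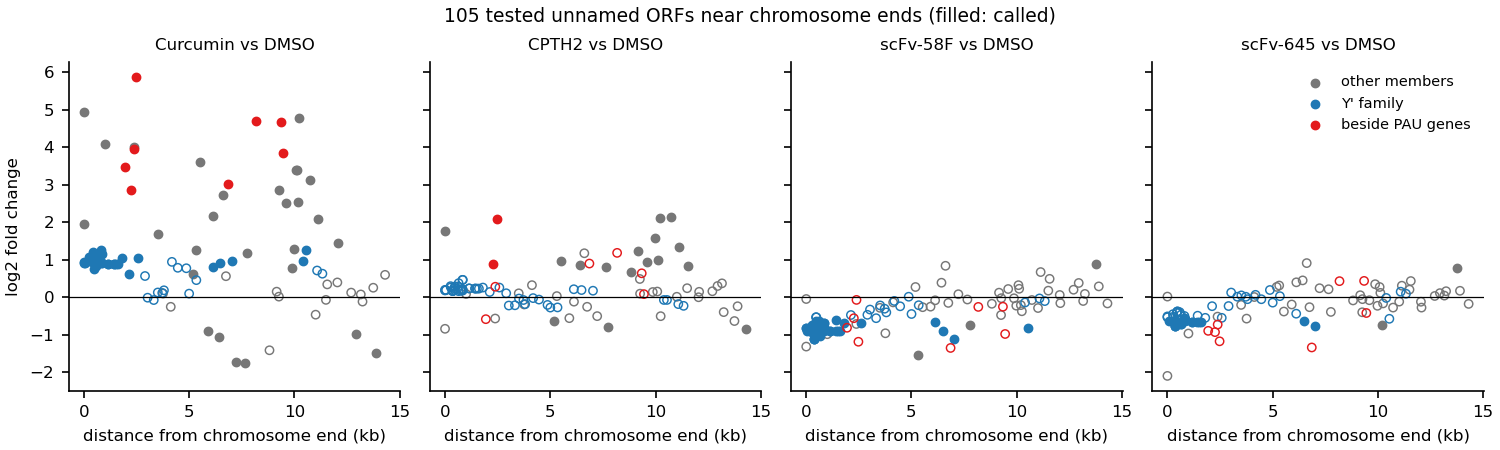
Log2 fold change of each of the 105 tested members against the distance of its nearer edge from the chromosome end in kb, a panel for each condition against DMSO, with filled points for members called changed. In Curcumin points lie mostly above 0 at all distances (a median of 0.93 over the 105, and of 0.47 outside the Y' family for the 36 members that passed without Curcumin). In scFv-58F the filled points below 0 lie mostly within 5 kb, where 33 of 56 members were lower. All 33 were Y' ORFs, which share reads, and outside that family 0 of 11 were lower there.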

How the data were processed

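Polyadenylated RNA of 15 L40 cultures was sequenced as 51-base single-end reads. The authors mapped reads to the sacCer3 genome with segemehl and counted them per gene with NGSutils 0.5.9, with multiple matches set to partial and no strand per the file headers, although the kit is stranded. The deposited files hold this raw count per gene, and beside it the RPKM and the CPM columns that the authors derived from it, which were not used. Groups came from the sample labels.

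Counts were tested with edgeR 4.0.16 in R 4.3.3 (quasi-likelihood, TMM, fit on the 6 libraries of each comparison, 10 counts in at least 3 of 15 libraries), and adjusted over 6588 genes. The fit was tested on simulated data. DESeq2 1.42.0 served as an alternative. Other alternatives were another scaling, filter or window, a single model, a replicate block and each library left out. Those concerning single-copy ORFs, the Y' family and the Curcumin libraries, were chosen after seeing the data. Members and lists were chosen with earlier results of these data known.

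The replicates are biological replicates according to the methods of the study. Their numbers showed no pairing of the libraries across groups. Correlations of deviations ran from -0.385 to 0.145 between libraries of the same number, and from -0.253 to 0.488 between different numbers. With 3 libraries a group these values cannot exclude a pairing. Families were joined by blastn 2.17.0 at 80% identity over 80% of the shorter ORF. Read-ratio intervals are exact 95% intervals and cover counting error only. Sequences were read from the RefSeq sacCer3 assembly, in which 69 of 136 members were found, all at the same coordinates, and the other 67 were taken as unnamed. The study's gene table names 2 further genes near ends, IMD1 and AAD16, which were therefore no members.

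Named here are, in each comparison, called members with the 8 largest changes in each direction, the 5 with the highest CPM per kilobase in DMSO without overlap, YFR057W, YML131W, YDR541C and YCR102C, the ORFs nearest the window limit and those that differ between the intrabodies. Others are examples of a family or an overlap, chosen after their values were seen, and largest changes within the Y' family are given by example. The 1 ORF that the rule leaves out is not reported here.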

Additional observations from a re-analysis of the deposited data

Results flagged for a closer look

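The effects of the intrabodies differed for 4 members when scFv-58F was tested directly against scFv-645, at an edgeR adjusted p below 0.05 with no limit on fold. These were 4 of 105 tested members, a smaller share than the 1415 of all 6588 genes in the same test. YGL262W differed by -1.86 ± 0.44 (adjusted p = 0.0126), on 7 reads in scFv-58F against 26 in scFv-645. YFL064C differed by -0.58 ± 0.15 (edgeR adjusted p = 0.0191), and YPR204W by -0.32 ± 0.10 (adjusted p = 0.037), both being Y' ORFs lower in scFv-58F. YML131W differed by 0.54 ± 0.08 (edgeR adjusted p = 0.00155), with 87.2, 79.97 and 73.1 CPM in scFv-58F against 52.0, 54.4 and 59.2 CPM in scFv-645.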

How the results depend on the processing

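Counts of members called, medians of their log2 fold changes and ratios of their summed levels were recomputed under each alternative, and every value that moved is given here. For Curcumin 71 were higher and 6 lower, with a median of 0.93 and a ratio of 2.23. Library size alone gave a median of 1.28 and a ratio of 2.82. Without overlapping members 27 were higher, with a ratio of 2.98. With single-copy members only, 15 were higher and 3 lower, with a ratio of 2.70. Without the Y' family 30 were higher, with a median of 1.28, but among those that passed the count minimum without Curcumin it was 16 of 36, with a median of 0.47. A window of 20 kb gave 10 lower.
For CPTH2 15 were higher and 3 lower, with a ratio of 1.44. Without the fold limit 30 were higher and 7 lower, and 4216 of all 6588 genes had an adjusted p below 0.05. A 10 kb window gave 8 higher and a ratio of 1.14, and a 20 kb window gave 25 higher, 5 lower and a ratio of 1.72. Without overlapping members the ratio was 1.94, with single-copy members 6 were higher with a ratio of 1.90, and without the Y' family the ratio was 1.82.
For scFv-58F 1 was higher and 39 lower, with a median of -0.48 and a ratio of 0.79. Without the fold limit 6 were higher. Library size alone gave a ratio of 0.757. A 10 kb window gave 0 higher, a median of -0.69 and a ratio of 0.659, and a 20 kb window a median of -0.29 and a ratio of 0.904. Without overlapping members 0 were higher and 5 lower, with a median of -0.17 and a ratio of 0.929. Without members whose counts equal another gene's, 24 were lower, with a median of -0.29 and a ratio of 0.821. With single-copy members 0 were higher and 2 lower, with a median of -0.15, and the ratio turned to 1.001. Without the Y' family 2 were lower, with a median of -0.14, and the ratio turned to 1.03.
For scFv-645 1 was higher and 21 lower, with a median of -0.38 and a ratio of 0.82. The single model gave 0 higher and 5 lower, and no fold limit gave 2 higher and 39 lower. A 10 kb window gave 0 higher, a median of -0.46 and a ratio of 0.767, and a 20 kb window a median of -0.24 and a ratio of 0.876. Without overlapping members 0 were higher and 2 lower, with a median of -0.15 and a ratio of 0.890. Without equal counts 8 were lower, with a median of -0.20. With single-copy members 0 were higher and 1 lower, with a median of -0.083 and a ratio of 0.923. Without the Y' family 1 was lower, with a median of -0.083 and a ratio of 0.953. Members passing without Curcumin gave a median of -0.28.
For scFv-58F against scFv-645 0 were higher and 1 lower, with a median of -0.20 and a ratio of 0.96. Library size alone gave 2 lower and a ratio of 0.913. DESeq2, the single model, 10 counts in every library and members passing without Curcumin each gave 0 lower. No fold limit gave 1 higher and 3 lower, and a 10 kb window a ratio of 0.860. A 20 kb window gave 1 higher and turned the ratio to 1.03. Without overlapping members the median was -0.052 and the ratio turned to 1.04. With single-copy members both turned, to 0.0002 and 1.08, and without the Y' family the median was -0.022 and the ratio turned to 1.08.
Smaller lists hold fewer calls by construction, and the cause of the other shifts was not tested.
With a library left out, Curcumin gave 51 to 77 higher and 6 to 7 lower, and CPTH2 gave 11 to 15 higher and 3 to 5 lower, with 5 lower without CPTH2 replicate 1. scFv-58F gave 1 to 1 higher and 36 to 39 lower. scFv-645 gave 0 to 1 higher and 17 to 31 lower, with 0 higher without DMSO replicate 3. The intrabodies against each other gave 0 to 1 higher, with 1 without scFv-58F replicate 3 or scFv-645 replicate 3, and 0 to 2 lower, with 2 without scFv-58F replicate 2 or scFv-645 replicate 1 and 0 without scFv-58F replicate 3.
The replicate number as a block gave 68 higher and 6 lower for Curcumin, 14 and 3 for CPTH2, 1 and 38 for scFv-58F, 1 and 24 for scFv-645, and 0 higher and 2 lower between the intrabodies, although the numbers showed no pairing of the libraries.
Over 56 fold changes of members named by rule and 712 alternatives, 690 kept direction and call, 18 lost the call and 4 turned in sign, all 4 in changes that were not called. With a library left out, YDR541C in CPTH2 ran from -0.061 (without DMSO replicate 2) to 0.046, and was -0.017 without CPTH2 replicate 1. YFR057W in CPTH2 ran from -1.53 to 0.14 (without DMSO replicate 3), and YCR102C in scFv-58F from -0.16 to 0.0092 (without DMSO replicate 2). YGL262W in scFv-58F against DMSO lost its call with DESeq2 (adjusted p = 0.0987), in the single edgeR model (adjusted p = 0.0811) and without scFv-58F replicate 3 (adjusted p = 0.0691). Depth limits the second family of short ORFs, of which 13 of 14 could not be tested.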
